A study of Mus musculus with 4 samples.

Results

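Desmosomes are the junctions that bind keratinocytes to one another, and 10 genes that encode their main epidermal components were examined for YAP binding. They are the desmogleins Dsg1a, Dsg2 and Dsg3, the desmocollins Dsc1, Dsc2 and Dsc3, desmoplakin (Dsp), plakoglobin (Jup), and the plakophilins Pkp1 and Pkp3. A peak was assigned to one of these genes when its summit, the highest point of the peak, lay inside the gene span, or outside it within 100 kb and nearer to it than to any other protein-coding gene. By this rule 67 of the 36576 peaks of the wild type (WT) list and 48 of the 14879 peaks of the Bmal1 knockout (KO) list belonged to these genes. Assignment by distance alone does not show which gene a site acts on.

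Binding of YAP was measured by ChIP-seq, the sequencing of DNA immunoprecipitated with an anti-YAP antibody, in doubly fixed epidermal cells of adult mice, 18 to 25 weeks old, killed at Zeitgeber time 4, that is 4 hours after lights on. The 2 groups differed in genotype, Bmal1 WT or Bmal1 KO, and shared the tissue, the age range, the hour and the antibody. The labels also write Bmal1cKO for the mutant, and neither the driver and the cells of the deletion nor the number of mice is stated in the labels. Each genotype had 1 deposited list of pooled peaks, so no value has a replicate error and no test of a genotype difference was possible. In whole epidermis, fewer cells of a kind and less bound YAP per cell cannot be told apart. Of the keratinocyte marker genes, 5 of 5 basal and 4 of 4 suprabasal ones had a WT peak. So did 1 of 3 Langerhans cell, 1 of 2 T cell, 3 of 3 melanocyte, 1 of 3 fibroblast and 1 of 2 endothelial genes. Among all protein-coding genes 52.5% had one, and the melanocyte genes did as fully as the keratinocyte genes. These counts therefore do not identify the cells, and a YAP peak does not read out expression.

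In a desmosome, desmogleins and desmocollins are the cadherins that reach across the gap between cells. Inside the cell their tails bind plakoglobin and plakophilins, which in turn hold desmoplakin, and desmoplakin anchors the keratin filaments. YAP is a transcriptional co-activator of the Hippo pathway that reaches DNA through TEAD factors, and BMAL1 drives the circadian clock together with CLOCK.

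The strength of a site is given below as recovered reads, the whole number of ChIP reads at the summit that the deposited fold and −log10 p imply. A whole number of reads matched the deposited p in every peak of both lists (tolerance 0.0003 on the −log10 scale). The most common background at summits, taken as that of evenly spread reads, was 9.63 reads in both lists. Reads can therefore be set side by side in these units. Kept WT peaks are those that share at least 1 bp with a peak of the KO list, and the rest are WT-only. Ratios of KO to WT are of reads above that background, on the log2 scale. Intervals of ratios are exact 95% intervals of the raw ratio of reads, which cover counting error only. Intervals of shares are exact 95% binomial intervals that treat peaks as independent draws, so they do not test a difference.

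YAP sites were present in WT at 9 of the 10 desmosome genes and in KO at 8 of them. Among all protein-coding genes 52.5% had a WT peak, 29.8% a KO peak and 29.6% a kept WT peak. Pkp1 with 19 WT peaks and Dsp with 18 held most of the sites, followed by Dsc1 with 9, Jup with 6, Dsg3 with 5, Dsc3 with 4, Dsg2 with 3, Dsg1a with 2 and Pkp3 with 1. No peak of either list was assigned to Dsc2. Genes with at least 18 WT peaks were few in the genome, 83 or 0.384%. Of the 67 WT peaks, 39 were kept in KO (58.2%, 45.5 to 70.2), against 39.1% of all WT peaks. All 48 KO peaks overlapped a WT peak, where 99.0% of all KO peaks did. KO reads were lower than WT reads at all 39 kept peaks, as at 99.5% of kept peaks in the genome. On the log2 scale the ratio had a median of -0.93 at desmosome genes and -0.88 over all kept peaks.

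**Figure D1:**
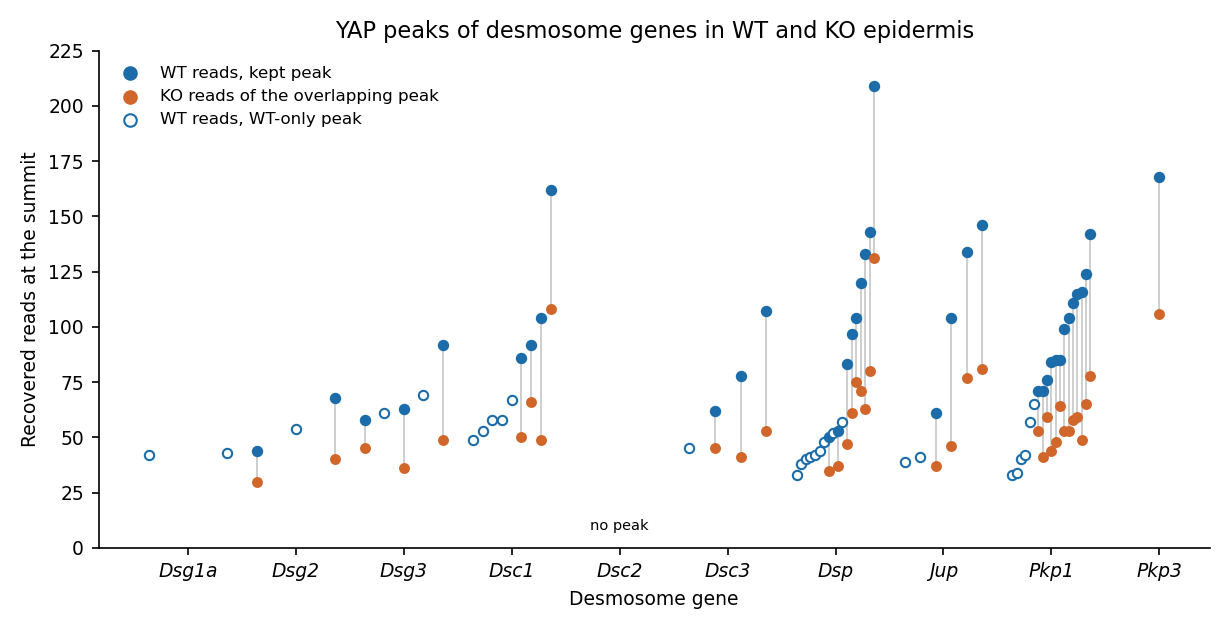
Recovered reads at the summit (y axis) for every WT peak of each desmosome gene (x axis), ordered by WT reads within a gene; filled blue points are kept peaks joined to the reads of the overlapping KO peak (orange) and open points are WT-only peaks. Each orange point lies below its blue partner, the strongest site is in Dsp (209 WT and 131 KO reads), and no WT-only peak exceeds 69 reads.

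The desmogleins carried 10 WT peaks, 5 of them kept, and none of the 10 exceeded 92 reads. Of all WT peaks of the same reads, 25.4% were kept, and whether the shares differ was not tested. Dsg1a, one of the mouse copies of desmoglein 1, the desmoglein of the upper epidermis, had 2 WT-only peaks. How reads shared by the near-identical copies Dsg1a, Dsg1b and Dsg1c were placed is not stated, so levels at these genes are uncertain. One peak of 42 reads lay 148 bp below the lower end of the span at chr18:20310495-20310995, and the other of 43 reads lay inside the gene at chr18:20318394-20318745. Dsg1a was thus the only one of the 9 genes with WT peaks that had no KO peak, and peaks this weak were seldom kept anywhere, at 3.1% of WT peaks under 50 reads.

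Dsg2, the desmoglein found also in simple epithelia, had its strongest site at chr18:20557987-20558848, inside the span and 206 bp from its lower end. This peak had 68 reads in WT and 40 in KO, a log2 ratio of -0.94 (raw ratio 0.588, 0.388 to 0.882). With 50% reciprocal overlap it was not matched, leaving 1 kept peak. A weaker kept peak 3710 bp below the lower end had 44 and 30 reads. Between them a WT-only peak of 54 reads lay 2967 bp from the span. The weaker kept peak was the only one of the 18 desmosome gene peaks under 50 reads that had a KO partner.

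Dsg3, the desmoglein of the basal layers and the main autoantigen of pemphigus vulgaris, had 5 WT peaks and 3 kept ones. Its strongest site lay inside the gene at chr18:20517896-20518486, 7959 bp from the lower end, with 92 WT and 49 KO reads (log2 -1.06; raw ratio 0.533, 0.369 to 0.761). A neighbouring peak had 63 and 36 reads, and one 655 bp inside the lower end had 58 and 45. A peak of 69 reads straddling the lower end, at chr18:20509898-20510453, was WT-only, and it was the strongest WT-only peak of any desmosome gene. Among all WT peaks of 60 to below 70 reads, 31.8% were kept. A second WT-only peak, inside the gene, had 61 reads.

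Of the desmocollins, Dsc1 and Dsc3 had 13 WT peaks, 7 of them kept, where 47.8% of all WT peaks of the same reads were. Dsc1, the desmocollin of the differentiated layers, had 9 WT peaks, of which 6 lay above the upper end of its span. The strongest, at chr18:20143132-20143987 and 28919 bp outside the span, had 162 WT and 108 KO reads, a log2 ratio of -0.63 (raw ratio 0.667, 0.518 to 0.856). A peak at chr18:20148525-20149584, 34134 bp outside, had 104 and 49 reads and a log2 ratio of -1.26 (0.471, 0.328 to 0.668). These 2 sites lie within 10 kb of each other, and their counting intervals overlap. Whether their ratios differ was not tested. At the upper end itself a peak 275 bp outside the span had 92 and 66 reads. Inside the gene a peak had 86 and 50 reads. The strongest of the 5 WT-only peaks of Dsc1 had 67 reads and lay 27276 bp outside.

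Dsc3, the desmocollin of the basal layers, had kept sites at both ends of its span. The strongest, at chr18:20001698-20002634 and 257 bp inside the upper end, had 107 WT and 53 KO reads (log2 -1.17; raw ratio 0.495, 0.349 to 0.695). Below the lower end, peaks at 664 and 1378 bp from the span had 78 and 62 reads in WT and 41 and 45 in KO. The order of these latter 2 peaks differed between the lists, and the intervals of their ratios overlap. The only WT-only peak had 45 reads and lay 2605 bp above the upper end.

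The desmosomal cadherin genes lie side by side on chromosome 18, in a run of 9 genes over 644 kb that also holds Dsg1c, Dsg1b and Dsg4. The strong sites of this run were concentrated in the 133 kb gap between Dsc1 and Dsg1c, where the desmocollin genes end and the desmoglein genes begin. The gap held 16 WT peaks, 7 of them kept. Of the 16, 6 were nearest to Dsc1 and 10 to Dsg1c. The strongest peaks of the gap had 162, 156, 156 and 112 WT reads, while the strongest peak of the cluster outside the gap had 107. Over the whole run 20 of 39 WT peaks were kept, where 42.1% of all WT peaks of the same reads were. Dsg1c is not one of the 10 genes, so its 10 peaks are left out of their counts. Its sites at chr18:20187844-20189467 and chr18:20228202-20228994 had 156 WT reads each, with 69 and 87 KO reads.

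**Figure D2:**
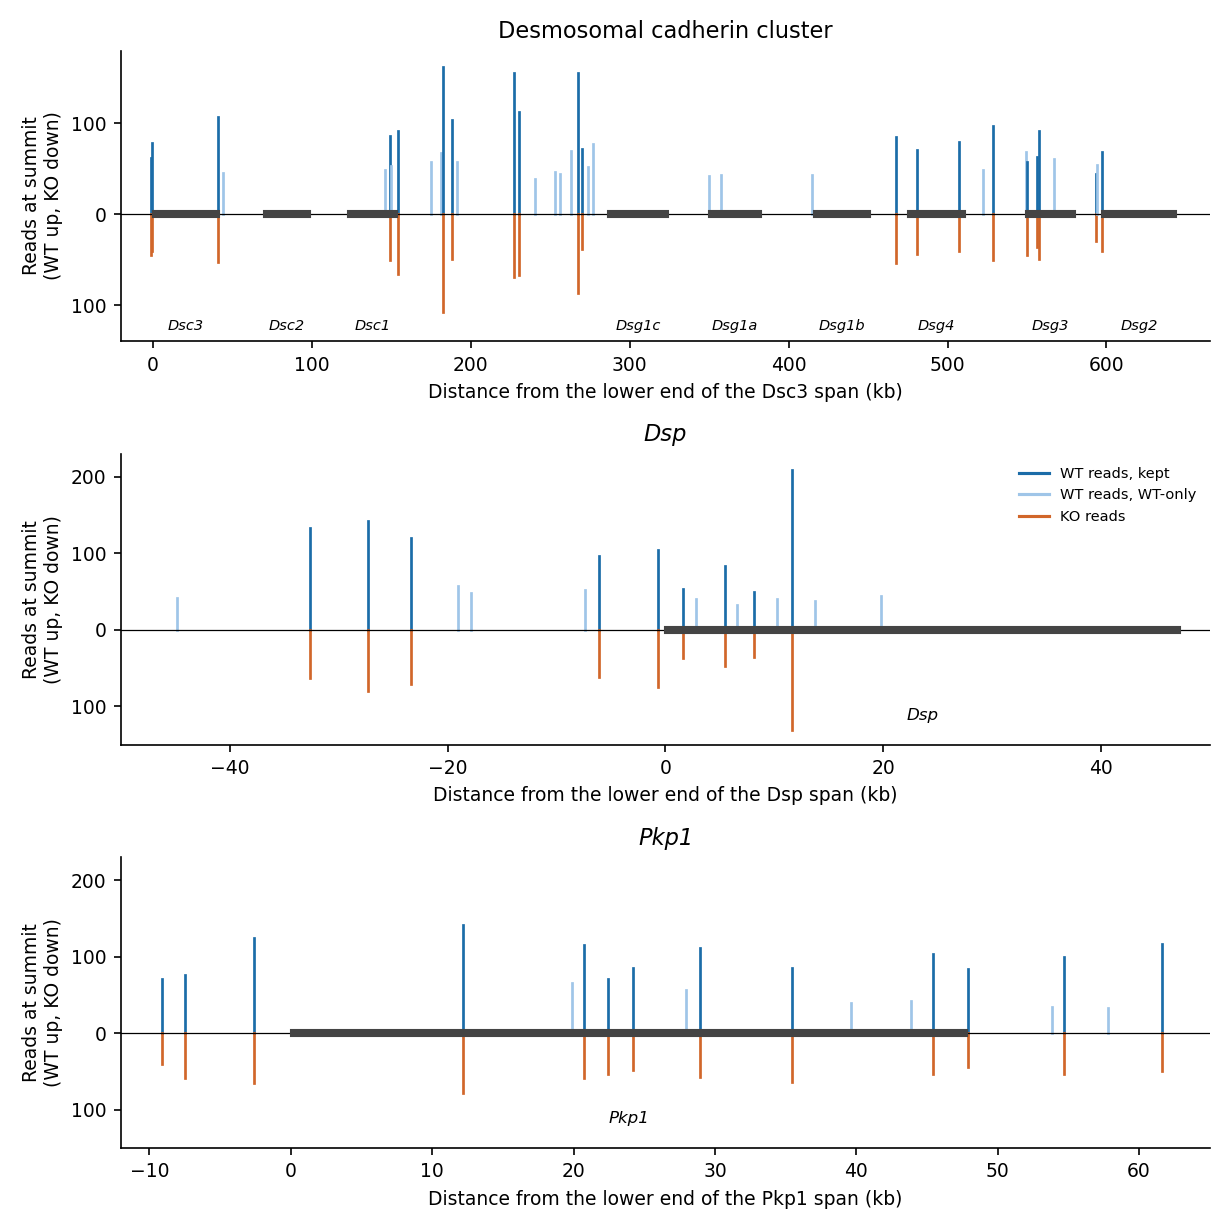
WT reads (up) and KO reads (down) at summits along the desmosomal cadherin cluster, Dsp and Pkp1, plotted as distance in kb from the lower end of the Dsc3, Dsp and Pkp1 spans; grey bars are gene spans, dark blue kept, light blue WT-only and orange KO. In the cluster the highest peaks, with 156 to 162 WT reads, stand between Dsc1 and Dsg1c, and no peak stands over Dsc2; at Dsp the 209-read peak is inside the gene.

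Dsp encodes desmoplakin, the obligate link between the desmosome and keratin filaments, and had 18 WT peaks with 9 kept and 11 KO peaks. Of all WT peaks of the same reads, 40.8% were kept, and whether the shares differ was not tested. The strongest site of all 10 genes lay inside Dsp at chr13:38162193-38163502, 11612 bp from the lower end of the span, which is its 5′ end. It had 209 WT and 131 KO reads, a log2 ratio of -0.72 (raw ratio 0.627, 0.4999 to 0.784). Within the span 4 of 9 peaks were kept, and upstream of it 5 of 9. The upstream sites reached far out, with 133 WT and 63 KO reads 32646 bp from the gene (log2 -1.21) and 143 and 80 reads at 27314 bp (-0.92). Another had 120 and 71 reads at 23331 bp (-0.85). The next gene on that side, Riok1, ends 89.9 kb below Dsp. All 9 WT-only peaks of Dsp were weak, from 33 to 57 reads, and the strongest lay 19036 bp upstream at chr13:38132059-38132895.

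At the start of Dsp a peak at chr13:38150331-38151497 had its summit 642 bp upstream, with 104 WT and 75 KO reads. Its log2 ratio of -0.53 (raw ratio 0.721, 0.529 to 0.9798) was the highest among the 18 desmosome gene peaks of at least 100 reads. Dsp and Jup were the 2 of the 10 genes matched in the RefSeq promoter table (GRCm38.p6), and both promoters lie under a YAP peak. They are shown here because the KO peak ends within them while the WT peak runs past both ends. The part outside the gene span is printed 5′ to 3′, with capitals for bases inside the KO peak. Every base of both lies inside the WT peak. The first is chr13:38151044-38151293 on the plus strand and the second chr11:100397840-100398040 on the minus strand.
Dsp: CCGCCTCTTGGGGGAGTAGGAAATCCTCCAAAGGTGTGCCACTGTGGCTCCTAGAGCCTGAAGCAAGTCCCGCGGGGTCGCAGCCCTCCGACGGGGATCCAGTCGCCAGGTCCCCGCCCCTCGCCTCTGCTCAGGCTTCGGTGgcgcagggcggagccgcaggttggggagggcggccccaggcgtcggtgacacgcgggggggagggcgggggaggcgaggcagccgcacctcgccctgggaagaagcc
Jup: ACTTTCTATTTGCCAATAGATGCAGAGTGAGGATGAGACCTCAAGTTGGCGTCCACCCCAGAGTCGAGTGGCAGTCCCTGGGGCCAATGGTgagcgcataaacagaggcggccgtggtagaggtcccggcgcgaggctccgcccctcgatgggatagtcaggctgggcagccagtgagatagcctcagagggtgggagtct
The KO peak covered 143 of 250 bases at Dsp and 91 of 201 at Jup, in both cases the bases farther from the gene. Both windows were rich in G and C, 72.4% at Dsp and 60.2% at Jup, against medians of 52.4% and 51.7% over the same window of 32851 promoters. On either strand neither window held the TEAD core GGAATG, the AP-1 site TGANTCA or the E-box CACGTG. In the 250-base window these letters occur in 12.6%, 6.75% and 6.02% of all promoters, and in the 201-base window in 10.7%, 5.59% and 4.36%. The WT summits of both peaks lay upstream of these windows, so the absence describes the printed bases only.

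Jup encodes plakoglobin, an armadillo protein shared by desmosomes and adherens junctions, and had 6 WT but 8 KO peaks. A single WT peak of 3654 bp, chr11:100395085-100398738, lay over the start of the gene with its summit 324 bp outside the span and 146 reads. In KO 4 separate peaks, of 45, 50, 36 and 81 reads, stood in its place, and the strongest gave a log2 ratio of -0.93 (raw ratio 0.555, 0.418 to 0.733). The local background at this site was 24.5 reads in WT and 15.4 in KO, and with each list's own local background subtracted the log2 ratio was -0.89. Inside the gene a 1617 bp peak at chr11:100386594-100388210 had 134 reads in WT, and 2 KO peaks of 37 and 77 reads lay under it (-0.88). Outside, 4996 bp from the span, a peak at chr11:100402178-100403404 had 104 WT and 46 KO reads (-1.38; 0.442, 0.306 to 0.632). The strongest of the 2 WT-only peaks had 41 reads. None of the 4 kept peaks of Jup met a rule of 50% reciprocal overlap, since the KO peaks were much narrower.

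Pkp1 encodes plakophilin 1, an armadillo protein of the suprabasal desmosomes, and kept 13 of its 19 WT peaks, the most of the 10 genes. Pkp1 also had the most WT peaks. Its kept share was 68.4%, where 59.1% of all WT peaks of the same reads were kept. Its sites were spread along the whole gene and both flanks, with 11 WT peaks inside the span, 7 of them kept. The strongest, at chr1:135882858-135884089 inside the gene, had 142 WT and 78 KO reads (log2 -0.95; raw ratio 0.549, 0.411 to 0.729). Outside the lower end, chr1:135868481-135869507 had 124 and 65 reads (-1.05). Outside the upper end, 13790 bp away, chr1:135932533-135934218 had 116 WT reads and 2 KO peaks of 48 and 49 reads. Its ratio of -1.43 (0.422, 0.296 to 0.595) was the lowest of all 39 kept peaks. The summit of the 49-read KO peak, paired because it had more reads, lay 892 bp away. The summit of the 48-read KO peak lay 13724 bp outside the span, close to the WT summit. Summits of the paired KO and WT peaks lay within 200 bp of each other at 37 of the 39 kept peaks, against 96.5% of all kept peaks. With any KO summit allowed, 38 WT peaks had one within 200 bp.

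The other Pkp1 peaks of at least 100 WT reads lay inside the span. They had 115 WT and 59 KO reads at chr1:135891870-135892639, 111 and 58 at chr1:135899948-135900637, and 104 and 53 at chr1:135916535-135917092. These 3 sites gave similar log2 ratios, from -1.07 to -1.12. The peak nearest to a span end, 107 bp above the upper end, had 84 and 44 reads (-1.11). At the other extreme, a peak 7496 bp below the lower end had 76 and 59 reads, and its ratio of -0.43 was the highest of all 39 kept peaks. WT-only peaks of Pkp1 had 33 to 65 reads, the strongest inside the gene at chr1:135891067-135891618.

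Pkp3, which encodes the plakophilin found in nearly all epidermal layers, had a single WT peak, and it was among the strongest of the group. It spanned 2645 bp over the lower end of the gene, chr7:141077837-141080481, with its summit 840 bp inside the span and 168 WT reads. Under it lay 2 KO peaks, one of 106 reads at nearly the same summit (12 bp away) and one of 80 reads. The log2 ratio of the stronger was -0.72 (raw ratio 0.631, 0.490 to 0.809). As at Jup, this peak did not meet 50% reciprocal overlap with either KO peak.

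Whether a desmosome gene peak had a KO partner followed its WT reads closely. All 31 WT peaks of at least 70 reads were kept, as were 82.3% of all WT peaks of that strength, and 8 of the 36 weaker ones were kept, against 12.7%. The limit of 70 reads was set after the values were seen, just above the strongest WT-only peak of 69 reads. The full counts at 70 reads or more, and from 70 to below 100, thus follow from where the limit was set. They do not show special keeping. Among the other desmosome-associated genes below, the strongest WT-only peak had 90 reads. At 100 reads or more, 18 of 18 were kept, where 98.6% of all WT peaks were. From 70 to below 100 reads 13 of 13 were kept, against 69.4%, and of these the 4 under 80 reads compare with 54.9%. From 100 to below 150 reads 15 of 15 were kept, against 98.1%. From 60 to below 70 reads the count was 4 of 8 (50.0%, 15.7 to 84.3), against 31.8%. From 50 to below 60 reads it was 3 of 10 (30.0%, 6.67 to 65.2), against 13.4%. Weighting the share of all WT peaks to the reads of the desmosome gene peaks gave 47.2%, beside their own 58.2%. Pkp1 and Dsp held 19 and 18 of the 67 peaks, which are not independent draws, and whether these shares differ was not tested.

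**Figure D3:**
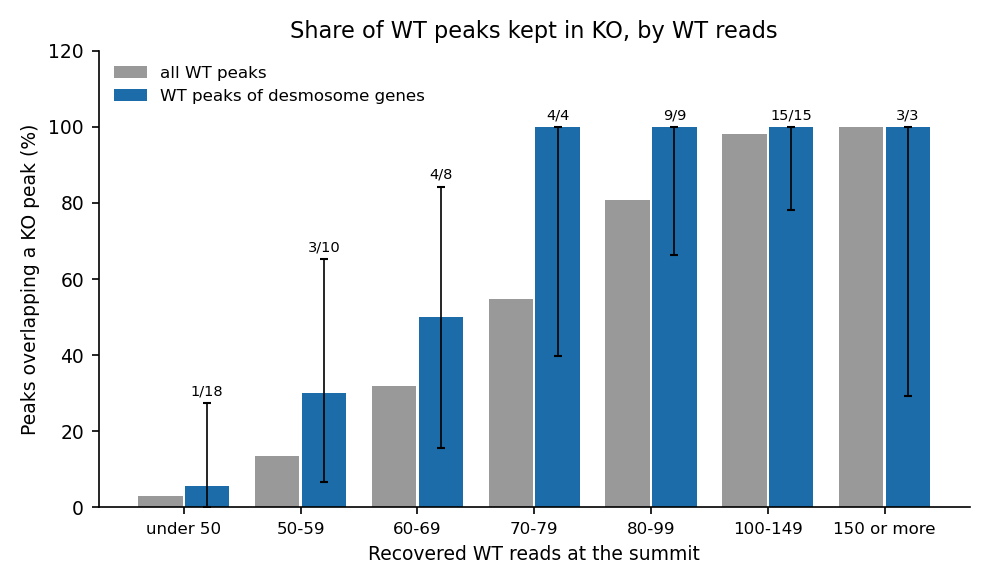
Share of WT peaks that overlap a KO peak (y axis, %) by recovered WT reads (x axis), for all WT peaks (grey) and those of desmosome genes (blue, with exact 95% intervals of counting error and the counts above). All desmosome gene peaks from 70 reads upward were kept, a limit chosen just above the strongest WT-only peak of 69 reads. The intervals treat peaks as independent draws and test no difference from the grey bars.

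Among the 39 kept peaks the log2 ratio of KO to WT ran from -1.43 to -0.43. A kept peak had to be called in KO, which leaves out sites with few KO reads, so the spread of these ratios does not show whether sites differ. Over all kept peaks the median was -0.28 under 50 WT reads and -0.97 from 80 to below 100. Of the 39 ratios, 21 lay inside the interquartile range of all kept peaks of equal WT reads, 9 above and 9 below it. At or outside the 5th to 95th percentile lay 4 peaks on the high side, of Pkp1 (2 peaks), Dsp and Dsc1, and 1 on the low side, of Dsg2. The Dsc1 ratio of -0.547 equalled the 95th percentile of its step to the digits held. A log2 ratio below -1 was found at 14 of 39 (35.9%), against 32.9% of all kept peaks.

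By role, the 5 cadherin genes with peaks kept 12 of 23 WT peaks (52.2%, 30.6 to 73.2), where 38.1% of all WT peaks of the same reads were kept. The 4 plaque genes kept 27 of 44 (61.4%, 45.5 to 75.6), against 52.0%. Whether either share differs from its matched share was not tested, and the median log2 ratio was -0.93 in both groups. At kept peaks the median local background was 11.5 WT reads and 10.7 KO reads, and it was lower in KO at 25 of 39 sites, against 58.6% of all kept peaks. With the local background of each list subtracted, all 39 ratios were still below 0.

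**Figure D4:**
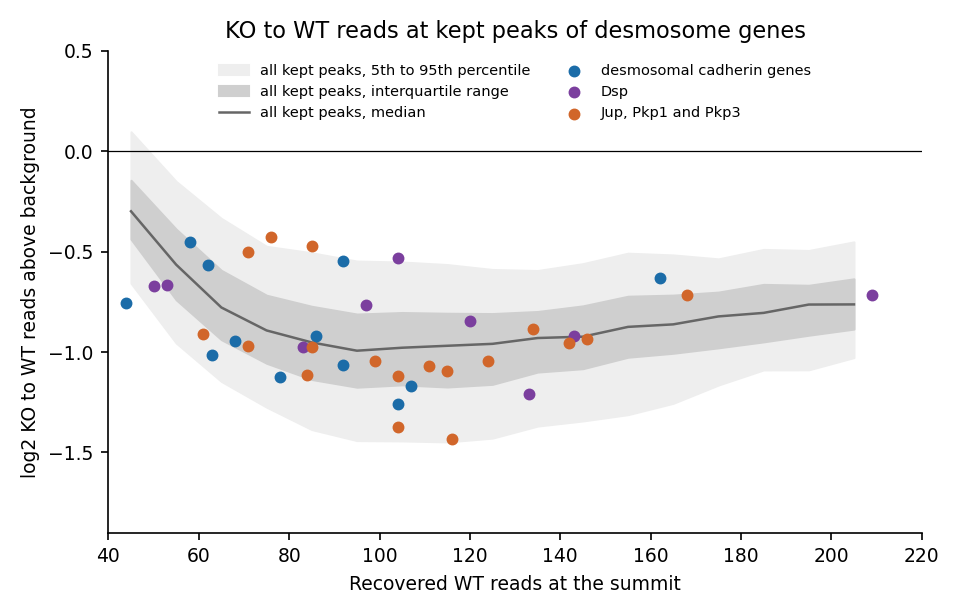
The log2 ratio of KO to WT reads above background (y axis) against recovered WT reads (x axis) at the 39 kept peaks, coloured by gene role, over the median, interquartile range and 5th to 95th percentile of all kept peaks in steps of 10 reads (grey). All points lie below 0, and 34 of 39 lie inside the 5th to 95th percentile of their step, with a Dsc1 peak on the 95th percentile counted outside.

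Several WT peaks of desmosome genes stood against more than 1 KO peak. Of the 39 kept peaks, 6 overlapped several KO peaks, 15 in all (15.4%, against 2.96% of all kept peaks). They were 2 peaks each of Jup and Pkp1 and 1 each of Dsp and Pkp3, and none belonged to a cadherin gene. Width went with this. At least 1200 bp wide were 9 of the 67 WT peaks, against 5.13% of all WT peaks. All 9 were kept, as were 1661 of the 1875 WT peaks of that width in the whole list. Of the 9, 6 were split, where 22.5% of all kept peaks of that width were. The Dsp peak at chr13:38122298-38124462, for example, was 2165 bp wide with 143 reads and lay over KO peaks of 51, 37 and 80 reads. The width limit was set after the values were seen. WT peaks of the 10 genes covered 52.8 kb with a median width of 595 bp, and KO peaks 25.3 kb with 474 bp, against median widths of 516 and 448 bp in the whole lists. Median WT widths were 608 bp at adherens junction genes, 598 at the other desmosome-associated genes below, 560 at hemidesmosome and 545.5 at tight junction genes. Median width was thus not particular to the desmosome genes. The share of peaks at least 1200 bp wide was not computed for the other lists. Split peaks made up 2.56%, 5%, 8.33% and 5.41% of the kept peaks of those lists. At suprabasal marker genes they made up 16.7%, or 2 of 12.

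Each of the 9 genes with WT peaks had one within 1 kb of an end of its span, where 61.0% of all genes with a WT peak did and 64.5% of those with at least 3. These nearest peaks lay between 107 bp (Pkp1) and 840 bp (Pkp3) from the end. Their WT reads were 42 at Dsg1a, 68 at Dsg2, 69 at Dsg3, 92 at Dsc1, 107 at Dsc3, 104 at Dsp, 146 at Jup, 84 at Pkp1 and 168 at Pkp3. KO kept 7 of these 9, all but those of Dsg1a and Dsg3. The kept ones had 68 to 168 WT reads and the other 2 had 42 and 69. Of all WT peaks, 3.1% were kept under 50 reads, 31.8% from 60 to below 70 and 82.3% from 70 upward. The count of 7 therefore does not show special keeping. The desmogleins and Pkp3 had their nearest peak at the lower end, with Dsp, and the desmocollins, Jup and Pkp1 at the upper end. Within 2 kb of an end lay 14 of the 67 WT peaks (20.9%, against 26.8% of all WT peaks). Of these 14, 11 were kept, against 32.4% of all WT peaks within 2 kb of an end. The 32.4% covers peaks of all strengths and was not matched to the WT reads of the 14, which keeping followed, so it does not show special keeping at these ends. Inside spans lay 33 of the 67, or 49.3%, against 53.3%.

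Other genes of the desmosome and the cornified junction were bound as well. Of the 10 in this list, Dsg1b, Dsg1c, Dsg4, Pkp2, Pkp4, Perp, Ppl, Evpl, Cdsn and Kazn, each had at least 1 WT peak, and 8 had KO peaks. They kept 40 of 67 WT peaks (59.7%, 47.0 to 71.5), near the 57.7% of all WT peaks of the same reads, with a median log2 ratio of -0.90. Perp, a membrane protein needed for desmosome assembly, had 15 WT peaks with 12 kept, the strongest with 160 WT and 92 KO reads. Ppl (periplakin) had the strongest site of the list, with 244 WT reads. Under it and a neighbouring WT peak of 215 reads lay a single KO peak of 164 reads, with its summit 15 bp from that of the neighbour. Cdsn, encoding the corneodesmosome protein corneodesmosin, kept 4 of 4 peaks, the strongest with 157 and 74 reads. Of all WT peaks of the same reads as those of Cdsn, 80.1% were kept. Dsg1b and Pkp2 had 1 WT-only peak each, of 43 and 59 reads.

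The related junction lists gave values in the same range, and no test of a difference between lists was made. Adherens junction genes kept 39 of 87 WT peaks (44.8%, 34.1 to 55.9; median log2 -0.85), hemidesmosome genes 36 of 67 (53.7%, 41.1 to 66.0; -0.89) and tight junction genes 37 of 80 (46.3%, 35.0 to 57.8; -0.80). Weighted to their own WT reads, the shares of all WT peaks were 46.7%, 51.6% and 47.3%. The 4 intervals, that of the desmosome genes included, overlap one another, but overlap is not a test of a difference. With 1 list per genotype, these data give no order among the junctions.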

How the data were processed

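The members and gene lists were chosen with earlier results of these data known. Per the submitters' processing notes, Trimmomatic 0.36, SAMtools 1.5 and MACS2 2.1.1 were used with build mm10; which step each served, the aligner and the pooled material were not given in the sources used here, and the 2 inputs were not analysed. The authors' deposited files give, per peak, a score (10 times the −log10 q, truncated), a fold ratio at the summit over background, the −log10 p and −log10 q, and the summit position. The lowest −log10 q was 2.01 in WT and 2.03 in KO.

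From fold and −log10 p, the reads at every summit were computed with the caller's Poisson formula, after a search for the ChIP to input scaling (0.694 in WT, 0.842 in KO). With the scaling set 3% off, 0.372% and 0.222% of peaks matched. On simulated lists made with the same formula the procedure returned exact reads for 100.0% of 36433 WT-like and 99.6% of 14741 KO-like peaks. Reads reached from 28 to 290 in WT and from 29 to 223 in KO; the reads behind a peak set its precision. The depth of the libraries is given by the labels only as 25 to 50 M reads per sample.

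Spans of 21631 protein-coding genes (autosomes and X) were taken from RefSeq, assembly GRCm38.p6 and promoters from the same source. The limits of 70 reads and 1200 bp and the comparison with genes of at least 3 peaks were chosen after seeing the data. A kept peak was paired with its overlapping KO peak of most reads. Peaks were named by a rule: for each gene its strongest WT peak, each of at least 100 reads, and its strongest WT-only peak; others named were chosen after their values were seen. With 1 list per genotype no test was run. Overlaps were checked with bedtools 2.31.1; Python 3.11.15 and SciPy 1.17.1 were used.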

Additional observations from a re-analysis of the deposited data

How the results depend on the processing

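No paired analysis was possible because there is only 1 pooled list for WT and 1 for KO. For the desmosome genes, the kept share of WT peaks was 43.3% with 50% reciprocal overlap, 93.8% (30 of 32) when as many top WT peaks were used as there are KO peaks, and 89.7% (35 of 39) above the median WT score. WT peaks were found under 60.4% of KO peaks with reciprocal overlap, and under 79.2% when summits had to lie within 200 bp. The numbers of WT and KO peaks were 33 and 24 inside gene spans only. They were 14 and 3 when −log10 q had to reach 40. Within 5 kb of a span end lay 38.8% of WT peaks. The authors' fold in place of reads gave a median log2 ratio of -0.58. The reduced lists hold only higher-scoring WT peaks by construction. Reciprocal overlap, gene spans only and the −log10 q limit can by definition only lower the values given here. A wider window at span ends can only raise its share. For the size of these shifts, and for the remaining ones, the cause was not tested. The other 25 values of the main results moved by less than their interval or 1.5 times. Among them, chosen after seeing the data, were a kept share of 56.7% and a median ratio of -0.92 without Pkp1 and Dsp, and -0.91 with local background subtracted. Among single genes and peaks 3 values moved, all under reciprocal overlap (Dsg2 kept 1 peak, Jup 0 and Pkp3 0), and 51 did not. The weakest called peak had 28 reads in WT and 29 in KO, so a WT-only peak is not shown to be unbound in KO.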
